A study of Mus musculus with 6 samples.

Results

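The nuclear-encoded subunits of the mitochondrial respiratory chain and of ATP synthase were read out in RNA-seq libraries labelled as sorted mouse basophils. Members were protein-coding genes whose symbols begin with Nduf and a subunit letter and digit (complex I), are Sdha to Sdhd (complex II), begin with Uqcr or are Cyc1 (complex III), begin with Cox4 to Cox8 (complex IV), or begin with Atp5 (complex V). This rule took 86 of the 55401 gene rows, 37 in complex I, 4 in complex II, 9 in complex III, 18 in complex IV and 18 in complex V. It used names and gene type alone, though members were chosen with earlier results of these data known. A further 12 rows matched the names and were left out as pseudogenes or non-coding genes.

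Wild-type mice were used. MC903, an analogue of vitamin D that inflames skin and serves to model atopic dermatitis, was put on both ears daily (2 nmol in 10 µL of ethanol, day 0 to day 6) and controls had ethanol without it. There were 6 libraries in 2 sets of 3, titled A and B. The labels do not tie either title to MC903 or to ethanol, and differences are therefore stated as B relative to A. Cells were sorted as live CD45+ cells without lineage markers and with CD49b and FcεRIα or IgE. The library labels name blood and the series' design text names ear skin. The labels speak of pooled RNA and give no animal for any library, so the p-values reflect nothing beyond the spread among these libraries, possibly a technical one.

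Library totals lay between 46137963 and 63956911 counts. The labels' protocol states a much smaller number of reads for each, and the sources used here do not resolve that. Defining basophil genes were nearly absent from set A: Fcer1a encodes the chain of the receptor that binds IgE, and its counts were 4, 0 and 0 across A versus 10736, 5584 and 2681 across B. The summed level of 9 basophil markers was 1.74 to 119.1 CPM (counts scaled to a common library total) in A and 1099.7 to 2524 CPM in B, and Itga2, which encodes CD49b, had 0 counts in all A libraries. The sets also differed in markers of other leukocytes. Summed levels were 2140 to 9299 CPM in A and 11763 to 22195 CPM in B for 7 neutrophil genes, 33193 to 40614 and 23368 to 30588 CPM for 5 monocyte genes, and 399.7 to 557 and 66.1 to 140.6 CPM for 5 T cell genes, of which Cd4 had 0 counts throughout. They were 2140 to 3245 and 1337 to 1826 CPM for 5 dendritic cell genes, 199 to 432 and 65.2 to 149 CPM for 3 erythroid genes, and 619 to 1044 and 414 to 609 CPM for 3 platelet genes, while the sets overlapped for B cell and NK cell genes. The part of these differences in the results below was not tested. In bulk libraries, fewer cells of a type and less RNA per cell cannot be told apart.

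The respiratory chain moves electrons from NADH (complex I) and succinate (complex II) through ubiquinone, complex III and cytochrome c to oxygen at complex IV. Complexes I, III and IV pump protons across the inner mitochondrial membrane, and complex V, ATP synthase, uses the return flow to make ATP. Most subunits are encoded in the nucleus and imported, while complexes I, III, IV and V each also contain subunits encoded in mitochondrial DNA. Mature neutrophils, which share the blood with basophils, are known to rely strongly on glycolysis.

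Promoters of respiratory chain genes are a textbook example of shared binding sites for the transcription factors NRF1 and GABP, the latter an ETS factor. Use of such sites was not measured here, and the letters of each motif were found in a minority of the member windows below. RefSeq promoter windows (build GRCm38.p6, from 250 bases before to 50 after the start site) were matched by symbol for 66 of the member symbols. The 120 bases just before the start site are shown 5′ to 3′ for 5 members. These are both complex II members with such a motif there and, outside complex II, the members without overlap between the sets that have one. Of these 5, Sdha had overlapping sets. Capitals mark matches to the NRF1 motif, searched as GCGC, any 2 bases and GCGC again, and to CCGGAAG or its reverse complement, taken as the ETS motif. The stretch for Sdhd is chr9:50603850-50603969, minus strand, that for Sdha is chr13:74350241-74350360, minus strand, and that for Atp5k is chr5:108434400-108434519, minus strand. Those for Uqcr11 (chr10:80406822-80406941) and Cox6b1 (chr7:30626115-30626234) are also on the minus strand.
Sdhd: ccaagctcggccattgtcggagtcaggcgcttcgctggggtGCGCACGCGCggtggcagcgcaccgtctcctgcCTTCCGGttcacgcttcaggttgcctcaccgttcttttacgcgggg
Sdha: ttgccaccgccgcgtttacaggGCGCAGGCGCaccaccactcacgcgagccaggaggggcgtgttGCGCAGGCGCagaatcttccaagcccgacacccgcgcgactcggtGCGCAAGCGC
Atp5k: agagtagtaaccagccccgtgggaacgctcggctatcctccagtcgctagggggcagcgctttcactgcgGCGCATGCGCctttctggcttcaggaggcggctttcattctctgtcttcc
Uqcr11: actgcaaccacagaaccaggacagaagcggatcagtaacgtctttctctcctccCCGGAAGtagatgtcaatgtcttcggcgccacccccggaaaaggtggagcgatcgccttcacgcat
Cox6b1: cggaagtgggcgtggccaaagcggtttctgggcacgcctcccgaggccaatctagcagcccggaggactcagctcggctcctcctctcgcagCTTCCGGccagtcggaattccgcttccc

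In the Sdha stretch the NRF1 letters occur 3 times, beginning 98, 55 and 10 bases before the start site. The Sdhd stretch holds the NRF1 letters at 79 and the ETS letters at 46 bases before the start. Sdhb, whose stretch is not shown, held the ETS letters from 6 bases after the start. Over the full windows, searched on both strands, 18 of 66 member symbols (27.3%) held the NRF1 letters, against 16.5% of 5912 other protein-coding genes tested and 7.0% of all 27025 genes of the table. For the ETS letters the shares were 24.2%, 23.4% and 9.93%. AAGATGGC, taken as the YY1 motif, was in 13.6% of members, 6.11% of the other tested genes and 3.19% of all, and TATAAA was in 10.6%, 9.37% and 15.7%. The NRF1 letters were thus more frequent in these windows than in those of other tested genes, and the ETS letters were about as frequent. By complex, 8 of 32 symbols held the NRF1 letters in complex I, 2 of 3 in complex II, 1 of 5 in complex III, 1 of 13 in complex IV and 6 of 13 in complex V. A match is a run of letters, not a measured binding site.

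Together the members took 1.65, 1.77 and 1.75% of counts in A replicates 1, 2 and 3, and 2.11, 1.73 and 2.00% in B replicates 1, 2 and 3. Of the 86, 78 had a mean of at least 10 CPM and 68 a mean of at least 100 CPM. The median of the 78 means was 203 CPM. By mean over the 6 libraries, the 78 held the subunits that most tissues share, and also the testis isoform Cox6b2 and Atp5s. A mean does not show presence in each library, and 12 of the 78 were under 1 CPM in A replicate 1. The 8 members below 10 CPM were Ndufa4l2, 6 tissue-restricted isoforms of complex IV and a second Atp5o entry.

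**Figure D1:**
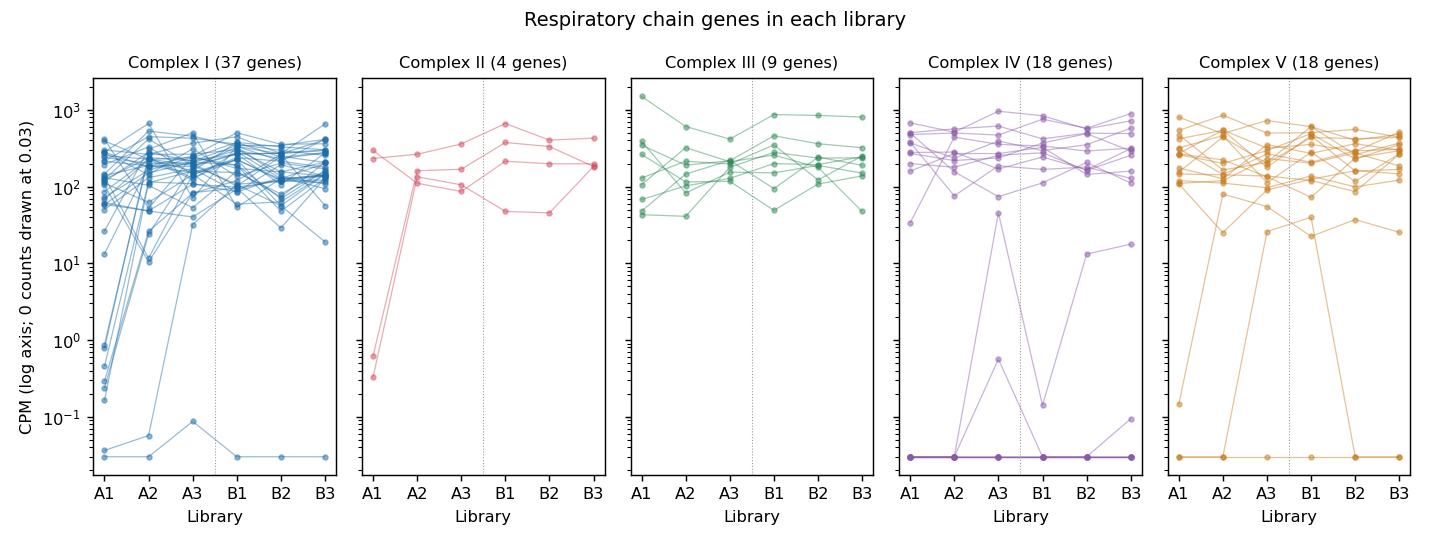
CPM of each member (log axis, 0 counts drawn at the bottom) in the 3 libraries of set A and the 3 of set B, by complex; a line joins the values of 1 gene. Most lines stay within 1 band of levels, and several members of complexes I, II and V drop below 1 CPM in A1.

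No member passed the comparison of B with A. By edgeR's quasi-likelihood test with Benjamini-Hochberg adjustment over 9196 genes, 0 of the 77 members tested were called, where 0.0217% of all genes were (2 genes). At an unadjusted p under 0.05, 1 member was higher in B and 1 lower, beside 5.05% and 1.32% of all genes. DESeq2 and limma-voom also called 0 members at the adjusted threshold, where they called 7.16% and 2.2% of genes. The fitted log2 differences of the 77 ran from -1.16 to 2.49 with a median of 0.13, and that of all genes tested was -0.06. With library size alone as the scaling these medians were 0.20 and 0.05, and with RLE scaling 0.02 and -0.16, so the members' median lay above that of all genes under these 3 scalings. It lay below that of all genes without the filter on low counts (0.11 and 0.28), by limma-voom (0.28 and 0.87) and with a replicate block (0.29 and 0.48). A missed threshold with 3 libraries per set does not show that levels were alike. The 2 members with the smallest p were Ndufa7 and Ndufv3, both of complex I and on opposite sides.

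**Figure D2:**
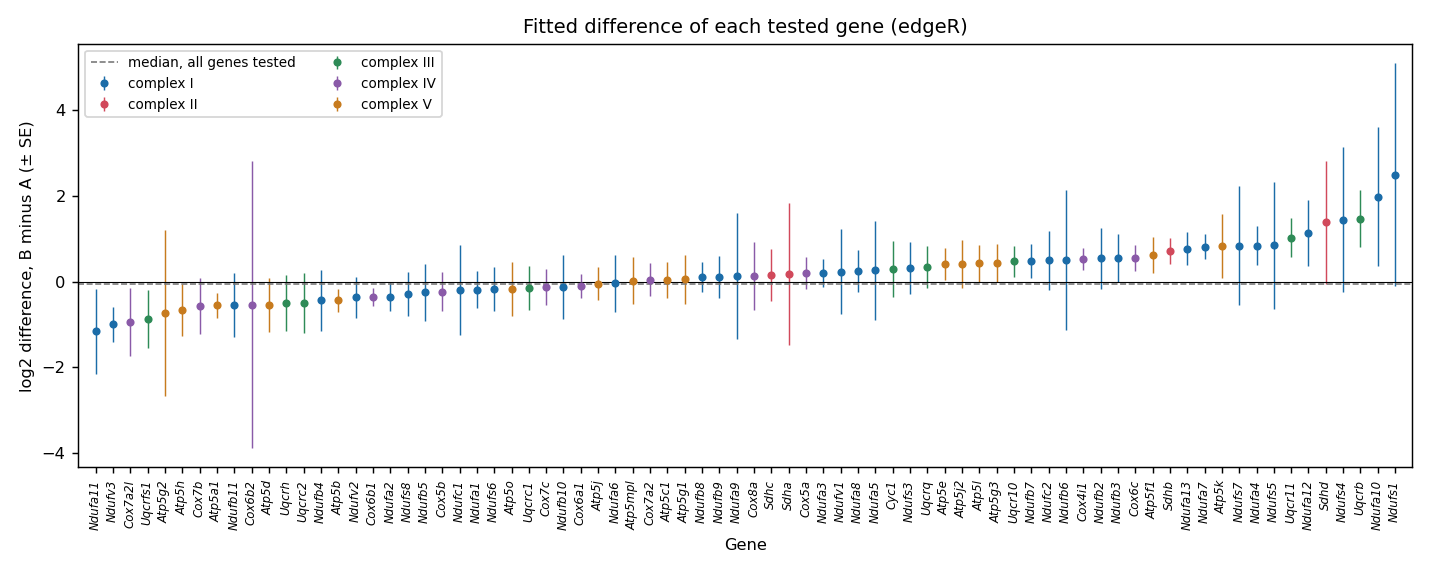
Fitted log2 difference (B minus A) of the tested members with its standard error, 1 member left out, ordered by size and coloured by complex; the dashed line is the median of all genes tested (-0.06). Members of every complex but complex II lie on both sides of 0, the widest errors belong to members near 0 counts in some libraries, and 0 members passed.

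Summed over members, complex II was the complex whose sets did not overlap, and it has the fewest members (4). For scale, the sets of 9.09% of single genes with a mean of at least 10 CPM did not overlap with B higher, and of 3.95% with A higher. The complex II sum was 530.0, 671 and 721 CPM across A versus 1304, 982 and 993 CPM across B, with means of 640.5 ± 98.9 and 1093 ± 183 CPM (SD, n = 3 each). The log2 ratio of the means was 0.77, and 0.62 to 0.86 when each library was left out in turn. Of the marker sums given above, those of neutrophils and basophils were also higher in every B library and those of monocytes, T cells, dendritic cells, erythroid cells and platelets lower, and their part in this difference was not tested. The sum of complex I was 4699.8, 7045 and 7006 CPM across A versus 8021, 6238 and 7635 CPM across B. A replicate 1 stood lowest and the other 2 A libraries lay within the range of B, so the log2 ratio of 0.22 became 0.05 without A replicate 1.

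Complex III summed to 2895, 1822 and 1842 CPM across A versus 2713, 2480.0 and 2389 CPM across B, a log2 ratio of 0.21 that became 0.46 without A replicate 1. Complex IV summed to 3854, 3443 and 4038 CPM across A versus 4148, 3648 and 4281 CPM across B. Complex V summed to 4490.2, 4673 and 3933 CPM across A versus 4946, 3992 and 4674 CPM across B. The last 2 complexes overlapped almost fully: their log2 ratios were 0.09 and 0.06, and -0.02 and -0.06 with TMM scaling. No p is given for these sums.

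**Figure D3:**
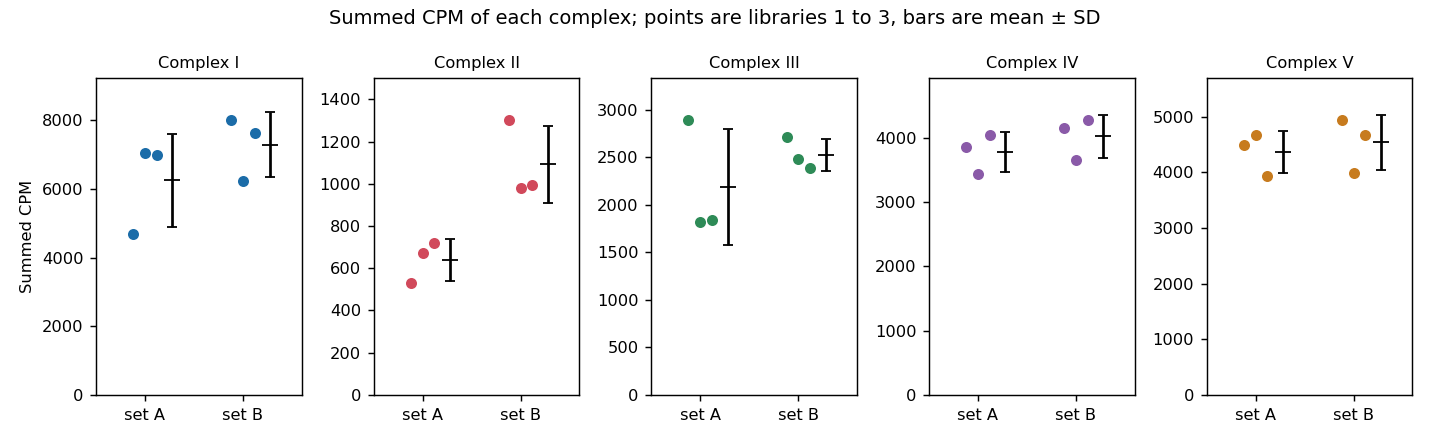
Summed CPM of the members of each complex; points are the 3 libraries of each set and bars the mean ± SD. The complex II points of set B (982 to 1304 CPM) lie above those of set A (530.0 to 721 CPM), and the sets overlap in the other 4 complexes.

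Among the 78 members with a mean of at least 10 CPM, 12 had all 3 B libraries above all 3 A libraries and 2 had the reverse order. Among all 7803 genes at that level the shares were 9.09% and 3.95%, and among protein-coding genes with a mean of 100 to 1000 CPM they were 6.83% and 5.8% (11 and 2 of the 68 members in that range). The 12 were Ndufa4, Ndufa7, Ndufa12, Ndufa13, Ndufs7, Sdhb, Sdhd, Uqcr11, Uqcrb, Cox4i1, Cox6c and Atp5k, and the 2 were Ndufv3 and Cox6b1. The count of 12 was 8 with TMM scaling (background 8.30%) and 6 with RLE scaling (7.54%), and the count of 2 was the same with both. Without A replicate 1 the counts were 18 and 7, beside 14.6% and 10.3% of genes; sets of 2 and 3 libraries part more easily by construction.

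**Figure D4:**
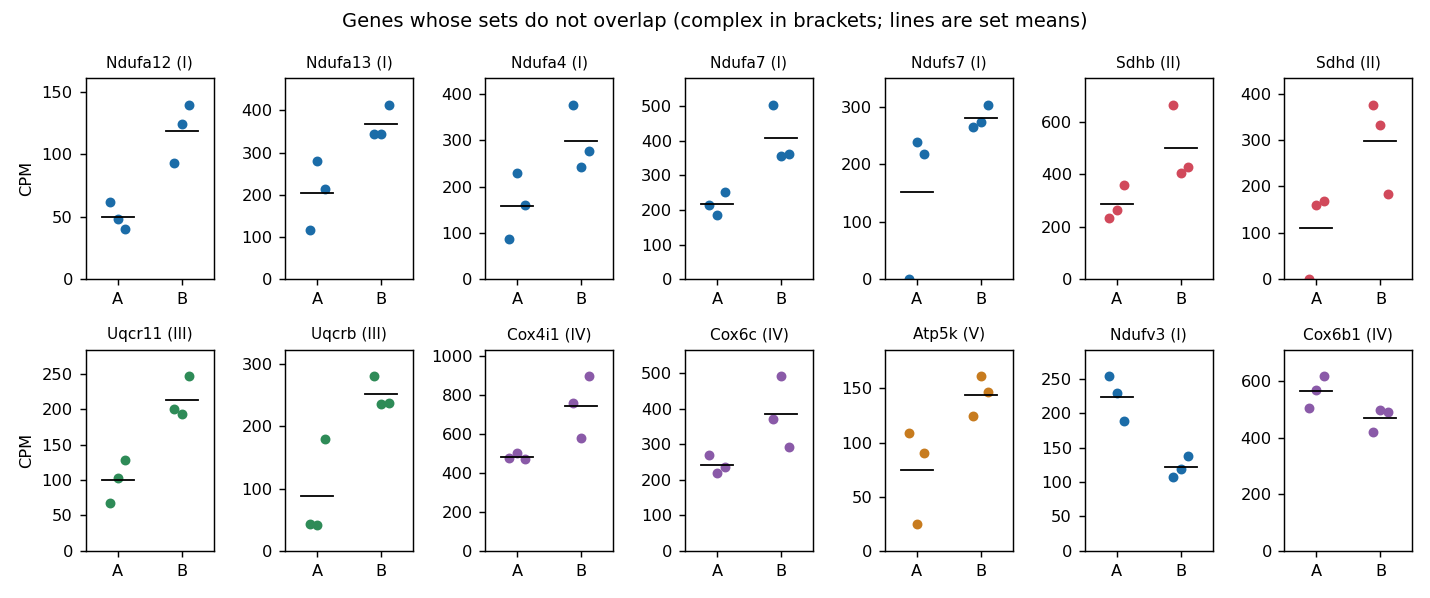
CPM of the 14 members whose sets do not overlap, with 3 libraries per set and a line at each set's mean, each panel's axis starting at 0. The first 12 panels have B above A and the last 2, Ndufv3 and Cox6b1, have A above B; Ndufs7 and Sdhd have 1 A library near 0.

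In complex I, the catalytic core includes the flavin-binding Ndufv1, its partner Ndufv2, and Ndufs1, Ndufs3, Ndufs7 and Ndufs8. Ndufs1, which carries iron-sulfur clusters, was at 0.0363, 0.0567 and 31.9 CPM across A versus 106.5, 56.2 and 19 CPM across B. It had 2 A libraries near 0, so its fitted difference of 2.49 had an SE of 2.59. Ndufs7 was at 0.871, 239 and 217 CPM across A versus 265, 273 and 304 CPM across B. Apart from A replicate 1, its 5 libraries lay within 217 to 304 CPM.

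Ndufv1, which accepts electrons from NADH, was at 13.3, 187 and 152 CPM across A versus 227, 56.2 and 146 CPM across B. Its partner Ndufv2 was at 281, 181 and 200.3 CPM across A versus 102, 248 and 207 CPM across B. These 2 subunits of the same module did not share their low libraries, since Ndufv1 was lowest in A replicate 1, where Ndufv2 was highest. Ndufs3 was at 68.2, 227 and 123 CPM across A versus 287, 127 and 139 CPM across B, and Ndufs8 at 145, 531 and 454 CPM across A versus 337, 215 and 416 CPM across B. The sets overlapped for both, and 0 of the core subunits named here had an unadjusted p under 0.05.

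Accessory subunits of complex I surround the core and are needed for its assembly and stability. Ndufa7 was at 215, 186 and 251 CPM across A versus 504, 357 and 362 CPM across B. Every B library was above every A library, and the fitted log2 value was 0.81 (SE 0.29, adjusted p = 0.602 by edgeR, with 0.332 to 0.998 over the other settings). Ndufv3, an accessory subunit of the NADH-binding module, was at 254, 229 and 189 CPM across A versus 107, 119 and 138 CPM across B. It was lower in all 3 B libraries, the fitted log2 value being -0.99 (SE 0.41, adjusted p = 0.762 by edgeR, with 0.130 to 1.00 over the other settings). Neither passed over all genes tested under any setting run.

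Ndufa13, also known as GRIM-19, was at 116, 281 and 215 CPM across A versus 343, 343 and 414 CPM across B. Ndufa12 was at 62.1, 48.1 and 40.2 CPM across A versus 92.8, 124 and 139.8 CPM across B. Both were higher in 3 of 3 B libraries, by 0.77 (SE 0.38) and 1.13 (SE 0.76) on the log2 scale, with an adjusted p of 1.00 by edgeR. Ndufa4, named as a complex I subunit and now regarded as part of cytochrome c oxidase, was at 86.2, 229 and 159.5 CPM across A versus 377, 242 and 278 CPM across B. Its sets lay close, with A replicate 2 just under B replicate 2. Ndufa4l2, its hypoxia-linked relative, had counts in A replicate 3 alone (0.0867 CPM).

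Several accessory subunits varied widely between libraries of 1 set. Ndufs4, a late-assembling subunit, was at 0.236, 24 and 184 CPM across A versus 326, 136 and 109 CPM across B. Its highest library was 1384-fold above its lowest. Ndufa11 was at 26.2, 307 and 504 CPM across A versus 53.9, 127 and 200.5 CPM across B, the lowest fitted difference of all (-1.16, SE 0.99). Steady members also existed: Ndufa3 lay between 201 and 297 CPM over the 6 libraries and Ndufb8 between 227 and 395 CPM. Ndufb7, another accessory subunit, was at 301, 264 and 368 CPM across A versus 448, 269.6 and 657 CPM across B.

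Complex II is succinate dehydrogenase, which links the citric acid cycle to the chain and has no mitochondrially encoded subunit. Sdhb, its iron-sulfur subunit, was at 233, 264 and 360.3 CPM across A versus 665, 404 and 429 CPM across B. Its B libraries were all higher, the log2 difference being 0.72 (SE 0.30, unadjusted p = 0.0523, adjusted p = 0.809 by edgeR). Sdhd, a membrane anchor, was at 0.617, 161 and 169 CPM across A versus 376, 333 and 183 CPM across B. B replicate 3 exceeded the highest A library by little, and A replicate 1 was near 0, so the difference of 1.38 had an SE of 1.43.

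The other 2 subunits overlapped between the sets. Sdha, the flavoprotein that oxidizes succinate, was at 0.327, 134 and 106 CPM across A versus 47.5, 45.4 and 183 CPM across B. Sdhc, the second anchor, was at 296, 111 and 86.4 CPM across A versus 214, 199 and 198 CPM across B. In A replicate 1 Sdha and Sdhd were thus both under 1 CPM while Sdhc was at its highest. Without Sdhb and Sdhd the sum of the complex overlapped between the sets (192 to 297 CPM in A, 244 to 381 CPM in B), and without either alone it did not.

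In complex III, which passes electrons from ubiquinol to cytochrome c, Uqcrc1 is a core protein of the matrix arm. It was at 1499.9, 608 and 417 CPM across A versus 871, 848 and 807 CPM across B. The B libraries were close together (842 ± 32.1 CPM, SD, n = 3) and the A libraries ranged widely (842 ± 578 CPM). The other core protein, Uqcrc2, was at 106, 322 and 212 CPM across A versus 258, 178 and 47.4 CPM across B. The 2 core proteins did not follow each other across libraries.

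Electron transfer in this complex runs over the Rieske protein Uqcrfs1 and cytochrome c1, encoded by Cyc1. Uqcrfs1 was at 263, 115 and 117 CPM across A versus 49.1, 108 and 138 CPM across B, and Cyc1 at 48.0, 146 and 219 CPM across A versus 94.3, 242 and 189.7 CPM across B. Both overlapped between the sets. Among small subunits, Uqcrb was at 43.1, 41.0 and 179 CPM across A versus 279.8, 236 and 237 CPM across B, and Uqcr11 at 68.0, 102.4 and 128 CPM across A versus 199.6, 194 and 246 CPM across B. Both were higher in every B library, by 1.46 (SE 0.67, adjusted p = 0.922 by edgeR) and 1.02 (SE 0.45, adjusted p = 0.856). The hinge protein Uqcrh was at 389.5, 82.6 and 155 CPM across A versus 151, 189 and 150.0 CPM across B, and Uqcrq lay between 122 and 350.0 CPM over the 6 libraries. In A replicate 1 Uqcrc1 exceeded the other 8 members together (1499.9 against 1395 CPM). Without Uqcrc1 the complex summed to 1214 to 1425 CPM in A and 1582 to 1843 CPM in B, with no overlap. With all members the sets overlapped. Uqcrc1 was picked for removal after its values were seen, and taking out such a member parts the sets more easily by construction.

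In complex IV, the nuclear subunits encase the mitochondrially encoded catalytic core. Cox4i1, the ubiquitous form of the largest nuclear subunit, was at 478, 501 and 470.4 CPM across A versus 758, 578 and 896 CPM across B. All B libraries were above the closely spaced A libraries, the log2 difference being 0.53 (SE 0.25, adjusted p = 0.971 by edgeR). Cox6c was at 271, 219 and 237 CPM across A versus 370.4, 491 and 292 CPM across B. Cox6b1, which faces cytochrome c, was at 506, 567 and 617 CPM across A versus 419.6, 498 and 492 CPM across B. The last was slightly lower in every B library (log2 difference -0.36, SE 0.21, adjusted p = 1.00 by edgeR), so ubiquitous subunits of 1 enzyme stood on both sides.

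Cox6a1, the form of its subunit found in most tissues, was at 678, 514 and 963 CPM across A versus 841, 566 and 720.3 CPM across B. Cox5a lay between 236 and 579 CPM, Cox5b between 144 and 325 CPM and Cox7a2 between 163 and 276 CPM, each with overlapping sets. Cox8a was at 33.9, 443 and 355 CPM across A versus 339, 291 and 318 CPM across B, low in A replicate 1 alone. Cox7a2l, a factor that joins complexes III and IV into supercomplexes, was at 501, 156 and 74.0 CPM across A versus 112, 207 and 112 CPM across B, high in that same library.

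Tissue-restricted isoforms of complex IV were at or near 0 in both sets, with 1 exception. Cox4i2 of lung, Cox6a2 and Cox7a1 of heart and skeletal muscle, and Cox8c of testis had 0 counts in all 6 libraries. Cox8b, of muscle, reached 0.0938 CPM in 1 B library and Cox7b2, of testis, 0.564 CPM in 1 A library. A floor of 3 counts stands for 0.0469 to 0.0650 CPM in these libraries, counting error only. The exception was Cox6b2, a testis isoform, which was at 0, 0 and 45.5 CPM across A versus 0.141, 13.2 and 17.8 CPM across B. It was present in some libraries of both sets, and its fitted difference had an SE of 3.34.

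In complex V, the catalytic head is made of alpha and beta subunits around a central stalk. Atp5a1, the alpha subunit, was at 804, 492 and 728 CPM across A versus 604, 404 and 481 CPM across B. Atp5b, the beta subunit, was at 541, 853 and 500.4 CPM across A versus 505, 558 and 441 CPM across B. Both had overlapping sets with lower means in B (log2 differences -0.55, SE 0.30, and -0.44, SE 0.27), and neither passed. The stalk subunits Atp5c1 (gamma), Atp5d (delta) and Atp5e (epsilon) lay between 144 and 314 CPM, 112 and 462 CPM, and 201 and 492 CPM. Atp5o, the subunit that confers oligomycin sensitivity, was at 268, 223 and 135 CPM across A versus 72.6, 237 and 294 CPM across B.

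The proton-carrying c ring is encoded by 3 genes, Atp5g1, Atp5g2 and Atp5g3, which give the same mature protein. Atp5g1 was at 146, 143 and 137 CPM across A versus 120.2, 86.0 and 264 CPM across B. Atp5g3 was at 110.2, 119.5 and 232 CPM across A versus 202, 276 and 186 CPM across B. Atp5g2 was at 0.145, 79.9 and 55.0 CPM across A versus 22.5, 37.2 and 25.4 CPM across B. Per kb of transcript the mean level was 259.6 CPM for Atp5g3 and 50.2 CPM for Atp5g2, and per kb of coding sequence 444 and 83.7 CPM. The place of Atp5g1 depended on the length used (31.7 CPM per kb of a long transcript, 366 CPM per kb of coding sequence).

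Of the membrane and peripheral subunits, Atp5k, subunit e of the membrane part, was at 109, 25.1 and 90.5 CPM across A versus 125, 161 and 147 CPM across B, without overlap (log2 difference 0.83, SE 0.74, adjusted p = 1.00 by edgeR). Atp5f1 was at 155, 442 and 200.1 CPM across A versus 438, 423 and 437 CPM across B. Its B libraries were nearly equal, and A replicate 2 lay above them. Atp5mpl, a small membrane subunit, was the steadiest member with a mean of at least 10 CPM, between 96.7 and 138 CPM. Atp5s, which is related to a coupling factor and is not a subunit of the enzyme, had counts in 2 libraries, A replicate 3 (25.9 CPM) and B replicate 1 (39.8 CPM).

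Per kb of transcript, the highest mean levels were those of Cox6a1 (1249.8 CPM), Cox6b1 (836 CPM) and Cox4i1 (802 CPM). Per kb of coding sequence Cox6a1 and Cox6b1 were also the first and second (2124 and 2002 CPM), and Cox4i1 was in rank 9. At the low end, Ndufs1, Sdha and Atp5s were among the 4 lowest of the 78 by both lengths, with 13.4, 29.7 and 6.86 CPM per kb of transcript. Of the leading genes, Cox6a1 and Cox6b1 thus kept their place by both lengths, whereas ranks 3 and 4 per kb of coding sequence were held by Atp5e and Uqcr10.

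The near-absent values gathered in 1 library. Of the 78 members with a mean of at least 10 CPM, 12 were under 1 CPM in A replicate 1, against 3 in A replicate 2, 0 in A replicate 3 and 1 in each B library. The 12 were Ndufa9, Ndufa10, Ndufb6, Ndufs1, Ndufs4, Ndufs5, Ndufs7, Sdha, Sdhd, Cox6b2, Atp5g2 and Atp5s. As an example, Ndufa9, an accessory subunit, had 0.780 CPM in A replicate 1 and 137.6 to 305 CPM in the other 5 libraries. No member of complex III was among them, the lowest value of its 9 members being 41.0 CPM (Uqcrb in A replicate 2).

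A replicate 1 was also the library with the fewest genes counted at all, 9242, against 9845 and 11281 in A replicates 2 and 3 and 11141 to 14066 in B. The part of this in the near-absent values was not tested. At mean levels of 100 to 400 CPM, 6 of 62 members (9.68%) and 129 of 1339 other protein-coding genes (9.63%) were under 1 CPM in A replicate 1. In A replicate 2 the shares were 0% of members and 6.27% of other genes, and in A replicate 3 and B replicates 1, 2 and 3 0% of members and 2.32, 1.49, 0.597 and 0% of other genes. Within narrower bands the share under 1 CPM in A replicate 1 was higher among members than among other genes: 60% against 54.1% at 10 to 100 CPM (6 of 10 members), 14.8% against 13.3% at 100 to 200 CPM (4 of 27), and 5.71% against 2.26% at 200 to 400 CPM (2 of 35). In every other library the members' share at 10 to 100 CPM was lower. It was 30% against 45.2% in A replicate 2 and 0% against 35.0% in A replicate 3. In B replicates 1, 2 and 3 it was 10% against 35.3, 23.7 and 11.5%. These differences were not tested. The ratio of the highest to the lowest library (a lowest value under 3 counts taken as 3 counts) had a median of 4.72 over 27 members and 5.76 over 897 other genes at 100 to 200 CPM, and of 2.85 over 35 members and 3.09 over 442 others at 200 to 400 CPM. A ratio above 10 was found for 18.5% of members and 38.8% of others in the lower range, and for 11.4% and 8.60% in the upper.

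**Figure D5:**
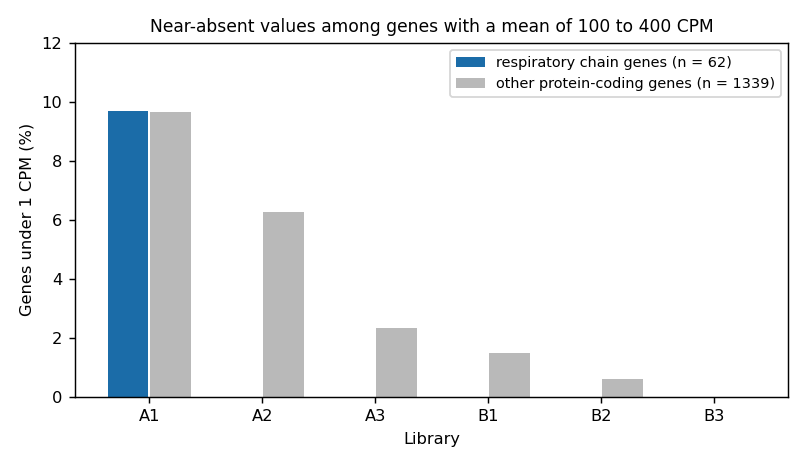
Share of genes under 1 CPM in each library at mean levels of 100 to 400 CPM, for 62 members (blue) and 1339 other protein-coding genes (grey). The members reach 9.68% in A1, where other genes reach 9.63% with a different mix of levels, and are at 0% in the other 5 libraries.

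Many of these genes have processed pseudogenes or overlapping neighbours, and the handling of shared reads was not given in the sources used here. In the GENCODE M21 transcripts, 30 of the 86 members shared at least 1 stretch of 100 bases with another gene, and 3 shared 50% or more of such stretches: Atp5g2 (86.4%), Atp5l (69.0%) and the second Atp5o entry (77%), which had 0 counts in all libraries. The level of Atp5g2 is uncertain to that extent. Of the 11 pseudogenes left out by the rule, 3 had 0 counts in all libraries (Atp5c1-ps, Ndufa11b and Uqcrh-ps1), and Uqcrh-ps2, Atp5l-ps2 and Atp5l-ps1 stayed under 1 CPM. The other 5 had counts in every library. Cox6c2 was at 3.70 to 5.79% of Cox6c over the 6 libraries, Ndufs6b at 5.94 to 7.97% of Ndufs6 and Ndufb4c at 5.76 to 17.7% of Ndufb4. Atp5l2-ps was at 1.97 to 2.85% of Atp5l, and Atp5k-ps2 at 1.45 to 3.04% of Atp5k.

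Genes around the chain gave no call either; the 43 tested assembly factors were of 59 listed and 56 matched. Of these 43, 0 passed by edgeR, with a median log2 difference of 0.23 (all genes -0.06). At an unadjusted p under 0.05, 6 were higher and 0 lower, beside 5.05% and 1.32% of all genes. Cox14, which acts early in complex IV assembly, was at 155, 146 and 159.7 CPM across A versus 364, 362 and 310.4 CPM across B. It was higher in every B library by 1.07 (SE 0.30, adjusted p = 0.508 by edgeR). The other 5, Coa6, Coa7, Cox11, Ndufaf2 and Ndufaf3, were under 1 CPM in all A libraries. Ndufaf3, a complex I assembly factor, was at 0, 0.170 and 0.520 CPM across A versus 37.5, 115.8 and 69.6 CPM across B, and Coa6 at 0, 0 and 0.0433 CPM across A versus 77.6, 18.3 and 14.8 CPM across B. Coa7, Cox11 and Ndufaf2 reached 65.3, 33.5 and 19 CPM in their highest B libraries. These 5 were named for their p, so their low values in A are a description, and fitted folds of such genes are no bound.

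The 13 mitochondrially encoded subunits, all tested, gave 0 calls by edgeR, with a median of -0.39. At an unadjusted p under 0.05, 0 were higher and 2 lower, beside 5.05% and 1.32% of all genes. The 2 were mt-Nd1 (934, 1223 and 1089 CPM across A versus 815, 631 and 601 CPM across B) and mt-Cytb (2277, 2199 and 1707 CPM across A versus 1444, 1736 and 1253 CPM across B), with adjusted p of 0.508 and 0.575 by edgeR. The sum of the 13 was 9106, 20828 and 10048 CPM across A versus 9649, 11110.0 and 11217 CPM across B, high in A replicate 2, a library in which the nuclear-encoded members were not (17654 CPM). Other lists tested held 17 citric acid cycle genes and 13 of the electron carrier and coenzyme Q list. They also held 6 carriers of ADP, ATP, phosphate and outer membrane pores, and 78 mitochondrial ribosomal proteins. In these lists 0 genes passed. At an unadjusted p under 0.05, 2, 1, 0 and 2 were higher in this order and 0 lower, beside 5.05% and 1.32% of all genes. The medians of the lists were 0.20, -0.02, 0.32 and 0.15. Those at that p, Idh2 and Dlst of the cycle, Gpd2, and Mrps25 and Mrpl47 of the ribosome, were under 1 CPM in all A libraries. They were named for their p, so their low values in A are a description. In B, Idh2 was also at 0.0846 CPM in replicate 2, and Dlst at 0.201 and 0.660 CPM in replicates 1 and 2. Cytochrome c, encoded by Cycs, was at 347, 292 and 270.1 CPM across A versus 505, 443 and 438 CPM across B, without overlap (log2 difference 0.50, SE 0.27, adjusted p = 1.00 by edgeR).

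Gpd2, the glycerol phosphate dehydrogenase that feeds electrons to ubiquinone, had 0 counts in all A libraries and was at 70.6, 93.7 and 37.8 CPM in B (adjusted p = 0.508 by edgeR). Among 10 regulators tested 0 passed. At an unadjusted p under 0.05, 1 was higher and 0 lower, beside 5.05% and 1.32% of all genes. The 1 was the orphan nuclear receptor Esrra (0, 0 and 0.0867 CPM across A versus 10.7, 23.0 and 15.8 CPM across B). Esrra was named for its p too, so its low values in A are a description. Of the factors named with the promoters and their partners, Nrf1 was at 0, 97.8 and 0 CPM across A versus 68.6, 24.3 and 76.4 CPM across B, Gabpa reached 7.43 CPM in 1 B library, and Ppargc1a, the coactivator known for inducing mitochondrial genes, had 0 counts throughout. Tfam, which activates transcription of mitochondrial DNA and packs it, was at 0, 59.2 and 56.1 CPM across A versus 0, 1.44 and 24.8 CPM across B. Nrf1 was thus at 0 in A replicates 1 and 3 alone, and Tfam at 0 in replicate 1 of both A and B.

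A few genes of the chain carry symbols that the rule does not take. Ndufab1, the acyl carrier subunit of complex I, was at 65.1, 161 and 63.8 CPM across A versus 146, 79.1 and 81.4 CPM across B. Usmg5, a small ATP synthase subunit, was at 77, 121 and 226 CPM across A versus 304, 206 and 239.5 CPM across B, and Atpif1, the inhibitor of ATP synthase, at 223, 65.8 and 319 CPM across A versus 203, 243 and 151 CPM across B. All 3 overlapped between the sets. Ndufb1-ps, annotated as non-coding and left out by the rule, was at 104.7, 181 and 145 CPM across A versus 243, 129 and 77.7 CPM across B.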

How the data were processed

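The authors deposited raw counts per Ensembl gene, 1 column per library for 6 libraries, made with Smart-seq2 per the labels' protocols. Of tools, the submitters' processing notes list DESeq2, HISAT2 2.2.1 and cutadapt 1.9, without saying what each did. The counting program, genome build, annotation and strandedness of counting were not given in the sources used here. Smart-seq2 has no molecular identifiers, so the floor of 3 counts covers counting error only.

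Symbols matched 55141 of 55401 identifiers. Biotypes and lengths came from GENCODE M21, with the transcript of the longest coding sequence standing for a gene. CPM were computed from each library's total over all gene rows. B was compared with A by edgeR 4.0.16 in R 4.3.3 (filterByExpr, TMM, robust glmQLFit, glmQLFTest, adjusted p under 0.05), fitted on the 9196 genes that passed the filter; the code was first tested on simulated counts. DESeq2 1.42.0, limma-voom (limma 3.58.1), other scalings and filters, counts divided by 4, a replicate block and leaving out each library were alternatives. Leave-outs and scalings of the count of members without overlap, and sums without single members, were added after seeing the data. Standard errors are the log2 difference divided by the square root of F. A protein table was not used here, so coding lengths came from GENCODE.

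The members and lists were chosen with earlier results of these data known. Named members were those fixed by role, those with p under 0.05 or no overlap, in each complex the highest and the 2 most variable, and those with 0 counts. Ndufa3, Ndufa11, Ndufb8, Atp5f1 and Atp5mpl, the members listed for values under 1 CPM or shared sequence (Ndufa9, Ndufb6, Ndufs5, Ndufa10, Atp5l, Ndufb4, Ndufs6), and the genes outside the rule were chosen after their values were seen. Of the lists' entries, 3 assembly factors (Uqcc4, Uqcc6 and Coa1) had no match. The values of 1 member of complex I are not reported here by name; it stays in the counts and sums.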

Additional observations from a re-analysis of the deposited data

How the results depend on the processing

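The count of members called stayed at 0 under every setting run, while that of all genes (2) was 595 by DESeq2, 202 by limma-voom and 0 to 1 when each library was left out. Replicate numbers gave no sign of pairing the sets. Deviations of each library from its set's mean log CPM correlated at 0.03, -0.02 and 0.03 for same-numbered A and B libraries. For differently numbered ones the correlations were -0.05 to 0.04. With the replicate block 0 genes and 0 members were called. The 12 members higher in B without overlap were 6 with RLE scaling and 14 to 21 with a library left out. The shares of all genes there were 7.54% and 12.8 to 19.9%, against 9.09% with all libraries. The 2 members lower in B were 2 to 7 with a library left out. The share of all genes there was 5.93 to 10.3%, against 3.95% with all libraries. Of 46 named members, 27 kept the sign of their log2 difference and 19 did not under some setting; the cause was not tested. With RLE scaling and by DESeq2, Atp5c1 was at -0.0684, Atp5g1 at -0.0865 and -0.0864 and Cox7a2 at -0.0565, and with library size alone Uqcrc1 was at 0.0140. By limma-voom, Atp5g2 was at 1.18, Atp5o at 0.0858, Cox6b2 at 4.48, Cox7a2 at -0.0322 and Uqcrc1 at 0.21. With the replicate block, Atp5g1 was at -0.14, Atp5g2 at 0.40, Cox6b2 at 5.63 and Uqcrc1 at 0.12.

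With each library left out in turn, the log2 differences that turned ran as follows: Atp5c1 -0.22 to 0.35, Atp5g1 -0.53 to 0.37, Atp5g2 -1.33 to 0.0333, Atp5o -0.53 to 0.21, Cox5a -0.12 to 0.37, Cox6a1 -0.29 to 0.10, Cox6b2 -1.19 to 12.14, Cox7a2 -0.12 to 0.27, Cox7a2l -1.39 to 0.23, Cox8a -0.40 to 0.69, Cyc1 -0.12 to 0.74, Ndufs3 -0.17 to 0.88, Ndufs8 -0.66 to 0.0665, Ndufv1 -0.30 to 0.79, Sdha -0.82 to 0.81, Sdhc -0.18 to 0.98, Uqcrc1 -0.50 to 0.65, Uqcrh -0.89 to 0.42, Uqcrq -0.0433 to 0.68. Values near 0 in single libraries limit what can be read for Ndufs1, Ndufs4, Sdha, Sdhd, Cox6b2 and Atp5g2. Their standard errors were the widest among the 46 named members counted above, together with that of Ndufs7. The same limit holds for Ndufa9, Ndufa10, Ndufb6 and Ndufs5, which are not among the 46 (SE 1.46, 1.62, 1.63 and 1.48).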
